A study of Homo sapiens with 6 samples.

Results

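The hemidesmosome genes described here were 8 genes, chosen by symbol from the 60663 rows of a table of raw read counts. They were *ITGA6*, *ITGB4*, *COL17A1*, *LAMA3*, *LAMB3*, *CD151*, *PLEC* and *DST*, and each symbol matched 1 row. The counts came from CCD18Co cells, an established line of normal human colon fibroblasts, 48 h after transfection with a pool of siRNAs against *LTBP2* (siLTBP2, 3 libraries) or with a non-targeting pool (siNT, 3 libraries). Both groups were transfected with the same lipid reagent, and total RNA was depleted of ribosomal RNA before stranded libraries were made. *LTBP2* encodes an extracellular matrix protein of the latent TGF-beta binding family. Because there was 1 pool against *LTBP2* and 1 cell line, an effect of losing *LTBP2* and another effect of that pool cannot be told apart in these libraries. The labels do not say whether replicates were separate cultures, so p-values measure the spread between these libraries only.

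Hemidesmosomes anchor basal epithelial cells to the basement membrane. Their core is integrin alpha6beta4 (*ITGA6* and *ITGB4*), which binds the matrix protein laminin-332 outside the cell, to which *LAMA3* and *LAMB3* contribute the alpha3 and beta3 chains. Inside the cell, the long tail of the beta4 subunit is joined to intermediate filaments by the plakins plectin (*PLEC*) and dystonin (*DST*), while collagen XVII (*COL17A1*), which spans the membrane, and the tetraspanin CD151 complete the structure. Fibroblasts are not known for classical hemidesmosomes, and several of these proteins have other roles there, since the alpha6 subunit also pairs with integrin beta1 and plectin binds vimentin.

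The libraries held 44663424 to 53576899 counted reads. *LTBP2* itself was at 25.0, 23.1 and 21.2 CPM (counts scaled to library size with TMM factors) in the siNT libraries and at 6.49, 8.61 and 6.00 CPM in the siLTBP2 libraries, so 30.4% of the siNT level remained (log2 fold change -1.72 ± 0.15, SE, adjusted p = 6.6e-05). All 10 fibroblast markers examined were above 1 CPM, with a summed level of 9959 to 13222 CPM in siNT and 10098 to 14431 CPM in siLTBP2. Their median log2 fold change was -0.21. At an adjusted p below 0.05 (edgeR quasi-likelihood), 0 were higher and 1 lower, where 9.76% and 9.51% of all tested genes were. *PDGFRB*, the lower one, averaged 168 CPM in siNT and 110 CPM in siLTBP2, a log2 fold change of -0.60 (adjusted p = 0.0025). In *PDGFRB* and *THY1* every siLTBP2 library lay below every siNT library, and in *VIM* above (18.3% and 18.7% of all tested genes). Of 12 epithelial markers, 3 were above 1 CPM (*KRT8*, *KRT18* and *CLDN4*), and the summed level of the list was 41.7 to 56.7 CPM in siNT and 87.4 to 101 CPM in siLTBP2, which followed *KRT18*. The defining epithelial genes *EPCAM* and *CDH1* had between 0 and 2 counts in every library, *KRT20* had 0, and the basal keratins *KRT5* and *KRT14* had 0 or 1. *KRT19*, also on the list, had 6, 1 and 6 counts in siNT and 9, 9 and 13 in siLTBP2, too few to be tested. Another basal keratin, *KRT15*, averaged 1.67 CPM in siNT and rose to 7.59 CPM in siLTBP2. It is not on the list and was picked because its pattern over the libraries lay nearest to that of *ITGA6*, so its rise was part of its selection. *EPCAM* and *CDH1* were thus at or near 0 in both groups, while *KRT15* and *KRT18* were higher in siLTBP2. *KRT8* had a log2 fold change of 0.32 (adjusted p = 0.085, edgeR quasi-likelihood). *CLDN4* went the other way, from 2.36 to 1.76 CPM, with a log2 fold change of -0.43 (adjusted p = 0.48). The endothelial list had summed levels of 67.4 to 83.6 CPM in siNT and 59.9 to 74.3 CPM in siLTBP2. These were mostly *TEK*, with means of 74.2 CPM in siNT and 68.0 CPM in siLTBP2. *VWF* averaged 1.58 and 0.968 CPM, and *PECAM1*, *CDH5* and *KDR* at most 0.119 CPM in either group. The other lists summed to at most 0.346 CPM in siNT and 0.486 CPM in siLTBP2 for leukocytes, and at most 0.365 and 0.323 CPM for glia. Smooth muscle markers summed to 141 to 156 CPM in siNT and 231 to 305 CPM in siLTBP2 (through *TAGLN*). The part of these shifts in the results was not tested. In bulk RNA, fewer cells expressing a gene and less of its RNA per cell cannot be told apart.

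The 8 genes did not move as a block. *ITGA6*, *COL17A1* and *LAMB3* rose in siLTBP2, *ITGB4* and *CD151* fell, and *LAMA3* fell by just under 2-fold, with *DST* slightly higher and *PLEC* within the spread of the libraries. Calls required more than a 2-fold change and an adjusted p below 0.01 in edgeR's quasi-likelihood test. All 8 genes passed the filter on low counts, and of these 3 were called higher, where 1.29% of the 16920 genes tested were, and 2 were called lower, where 1.27% were. When the adjusted p was only to be below 0.05, whatever the fold, 4 were higher (9.76% of all tested genes) and 3 lower (9.51%). In 4 genes every siLTBP2 library lay above every siNT library (18.7% of all tested genes), in 3 every one lay below (18.3%), and only *PLEC* overlapped. The median log2 fold change of the 8 was 0.11, against -0.01 over all tested genes. The members were chosen with results of these libraries known, so these counts describe them and are no independent evidence.

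**Figure D1:**
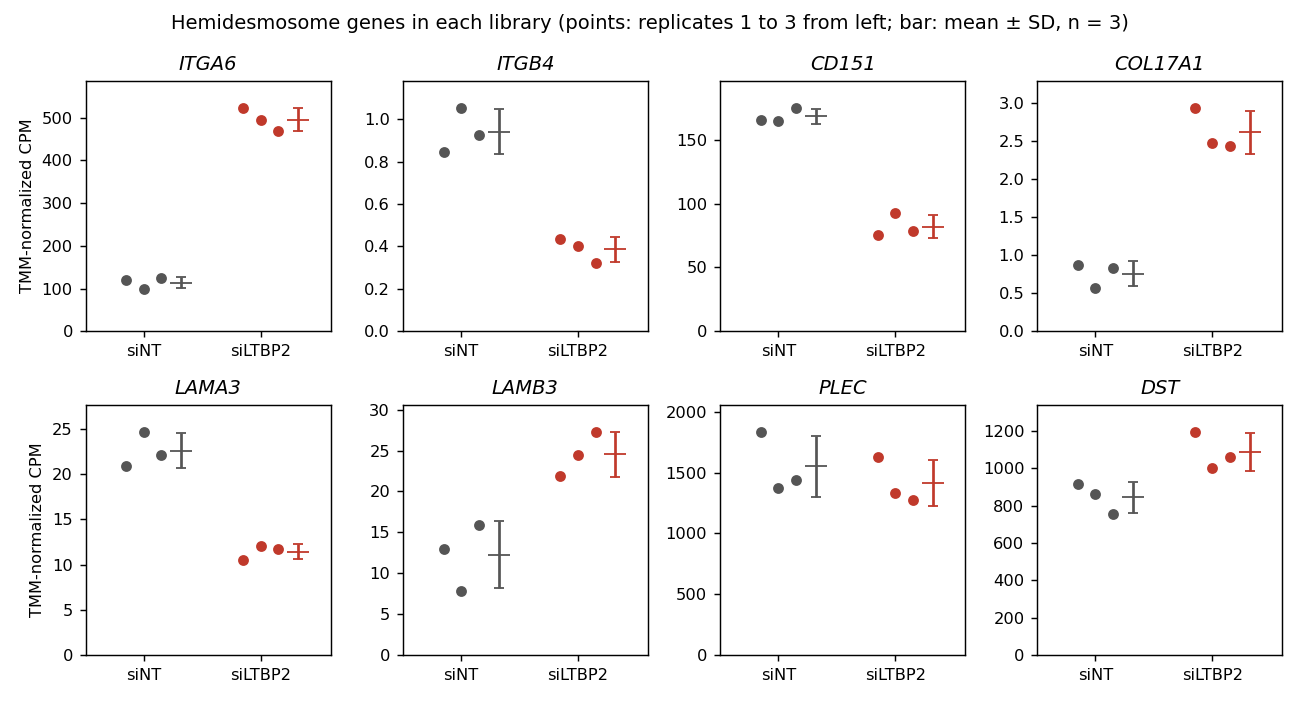
TMM-normalized CPM of each of the 8 hemidesmosome genes (vertical axes start at 0 and differ between panels) in the 3 siNT libraries (grey) and the 3 siLTBP2 libraries (red), with the mean and SD of each group (n = 3). The groups are apart in 7 genes and overlap in *PLEC*.

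The subunits of the laminin receptor moved in opposite directions. *ITGA6* (ENSG00000091409, chromosome 2 of GRCh38, 172427354 to 172506459, plus strand, 26 exons in the canonical transcript) encodes the alpha6 subunit. It was at 119, 98.3 and 124 CPM in siNT replicates 1 to 3 and at 523, 495 and 469.5 CPM in siLTBP2 replicates 1 to 3. Every siLTBP2 library was therefore far above the siNT libraries, of which replicate 2 was lowest. The log2 fold change was 2.12 ± 0.11 (SE, adjusted p = 5.4e-06, edgeR quasi-likelihood), a 4.35-fold rise. By p-value *ITGA6* ranked 3 among all genes tested, and 99.7% of them had a smaller absolute log2 fold change. With any 1 library left out it stayed between 2.03 and 2.19.

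*ITGB4* (ENSG00000132470, chromosome 17, 75721328 to 75757818, plus strand, 40 exons) encodes the beta4 subunit, which in epithelia pairs with alpha6 alone. Its read counts were 39, 52 and 50 in siNT and 19, 19 and 17 in siLTBP2. These correspond to 0.843, 1.05 and 0.927 CPM against 0.436, 0.402 and 0.323 CPM, so *ITGB4* was at a low level in both groups and lower in each siLTBP2 library. Its log2 fold change was -1.29 ± 0.26 (SE, adjusted p = 0.0067, edgeR quasi-likelihood). The call was lost whichever library was removed, at log2 fold changes of -1.38 to -1.16 and adjusted p between 0.015 and 0.026. *GALK1*, on the other strand, overlaps the *ITGB4* locus but shares no exon base with it. It had a mean of 1351 counts, against 32.7 for *ITGB4*, and its log2 fold change was -0.31 (adjusted p = 0.097). Whether reads were counted by strand is not given in the sources used here, and a part of *GALK1* reads in the *ITGB4* counts was not tested.

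Alpha6 has another partner, so the beta1 subunit (*ITGB1*) and alpha3 (*ITGA3*), which with beta1 forms a further laminin-332 receptor, were set beside it. *ITGB1* was at 677, 704 and 763 CPM in siNT and at 1343, 1315 and 1347 CPM in siLTBP2, a log2 fold change of 0.90 ± 0.09 (SE, adjusted p = 1.8e-04, edgeR quasi-likelihood). *ITGA3* had a log2 fold change of 0.89 ± 0.13 (SE, adjusted p = 9.1e-04), from 190 ± 25.1 to 352 ± 47.3 CPM (SD, n = 3). Both were higher in every siLTBP2 library, by less than 2-fold. Per kb of exon, *ITGA6* stood at 17.1 ± 2.06 CPM per kb in siNT (SD, n = 3), *ITGA3* at 19.4 ± 2.56 and *ITGB1* at 49.1 ± 3.01, while *ITGB4* stood at 0.139 ± 0.0156. In siLTBP2 the same quantity was 74.2 ± 4.03 for *ITGA6*, 35.9 ± 4.82 for *ITGA3*, 91.7 ± 1.21 for *ITGB1* and 0.0572 ± 0.0086 for *ITGB4*. On this scale, which depends on the exon length used, levels of *ITGA6* and *ITGA3* overlapped in siNT and no longer did in siLTBP2. In CPM, *ITGA6* lay below *ITGA3* in every siNT library and above it in every siLTBP2 library.

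Ratios of 2 genes within the same library do not depend on how libraries were scaled, and 8 such ratios were compared by an exact permutation test (two-sided), for which 0.1 is the smallest p that 3 against 3 libraries allow, before and after Benjamini-Hochberg adjustment over the 8. Per kb, there were 143, 94.4 and 135 *ITGA6* units for each *ITGB4* unit in siNT and 1215, 1246 and 1473 in siLTBP2, a change of 3.42 on the log2 scale (exact p = 0.1, adjusted p = 0.1). The ratio *ITGA6*/*ITGB1* was 0.385, 0.304 and 0.354 per kb in siNT and 0.849, 0.82 and 0.76 in siLTBP2, a change of 1.22 (exact p = 0.1, adjusted p = 0.1). *ITGA6*/*ITGA3* changed by 1.24 and *ITGB4*/*ITGB1* by -2.19 on the log2 scale (exact p = 0.1 and adjusted p = 0.1 for both). The groups did not overlap in any of these 4 ratios. For *ITGA6*/*ITGB4* and *ITGB4*/*ITGB1* this follows from the single genes, which lay apart in opposite directions. The test of these ratios thus adds nothing to the single genes. In every siLTBP2 library, the RNA of the alpha6 subunit was thus higher relative to both possible beta partners and to alpha3 than in any siNT library.

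**Figure D2:**
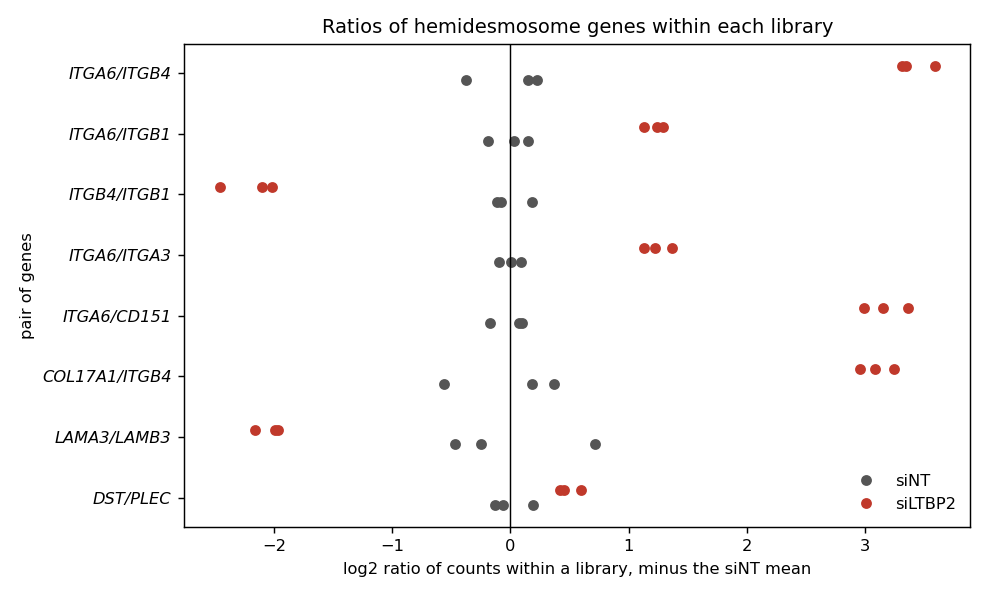
Log2 ratio of the counts of 2 genes within each library, minus the mean of the siNT libraries (horizontal axis), for 8 pairs of genes (vertical axis), with siNT in grey and siLTBP2 in red. The groups are apart in all 8 pairs. For *ITGA6*/*ITGB4*, *ITGB4*/*ITGB1*, *ITGA6*/*CD151*, *COL17A1*/*ITGB4* and *LAMA3*/*LAMB3* this follows from the single genes, which lay apart in opposite directions.

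CD151 is a tetraspanin, a membrane protein that binds laminin-binding integrins through their alpha3 and alpha6 subunits. *CD151* (ENSG00000177697, chromosome 11, 832887 to 839831, plus strand, 9 exons) was at 165, 165 and 175 CPM in siNT and at 75.6, 92.3 and 78.3 CPM in siLTBP2. The 3 siNT libraries lay close together and well above the siLTBP2 libraries. The log2 fold change was -1.04 ± 0.09 (SE, adjusted p = 8.3e-05, edgeR quasi-likelihood), a fall to 48.7% on the fitted scale. It lies near the fold change limit and was -0.98 without siLTBP2 replicate 1, where the call was lost. *ITGA6*/*CD151* changed by 3.17 on the log2 scale (exact permutation test, two-sided, p = 0.1, adjusted p = 0.1). This joins the rise of *ITGA6* and the fall of *CD151* and adds nothing on *CD151* alone. *POLR2L*, on the other strand, shares 257 exon bases with *CD151*, which is 6.6% of the exon bases of *CD151*. It had a mean of 5712 counts, against 6165 for *CD151*, and a log2 fold change of -0.28 (adjusted p = 0.064, edgeR quasi-likelihood). A part of *POLR2L* reads in the *CD151* counts was not tested.

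The 3′ UTR of *CD151* holds 1 copy of GCACCCA, a word of 7 bases that had been singled out in earlier results of these libraries. The copy begins 26 bases into the UTR, and the site is shown because *CD151* is the member that fell at high counts. It lies at chr11:838207-838235 of GRCh38, plus strand, with the word in capitals.

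CD151 site: ttgctgctgctGCACCCAactactgagct

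Among canonical 3′ UTRs of the tested genes, 11.8% hold the word. Of the other members, *PLEC* holds 1 copy and was not called, and *ITGB4* and *LAMA3*, which were lower, hold none, as do *ITGA6*, *COL17A1*, *LAMB3* and *DST*. A match to these letters is a description, and its part in the fall of *CD151* was not tested.

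Of 6 other tetraspanins, 1 was higher at an adjusted p below 0.05 and 1 lower, where 9.76% and 9.51% of all tested genes were, and neither differed by more than 2-fold. *CD82* had a log2 fold change of 0.79 ± 0.11 (SE, adjusted p = 9.7e-04, edgeR quasi-likelihood), from 64.0 ± 3.59 to 111 ± 16.7 CPM (SD, n = 3). *TSPAN4* was lower, with a log2 fold change of -0.81 ± 0.09 (SE, adjusted p = 2.4e-04), from 101 ± 3.34 to 57.5 ± 5.48 CPM (SD, n = 3). *CD9*, *CD63*, *CD81* and *TSPAN9* did not pass, with log2 fold changes between -0.20 and 0.26.

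Collagen XVII spans the membrane and reaches into the basement membrane. *COL17A1* (ENSG00000065618, chromosome 10, 104031286 to 104085880, minus strand, 56 exons) had 40, 28 and 45 counts in siNT and 128, 117 and 128 in siLTBP2. Its levels were 0.865, 0.567 and 0.835 CPM against 2.94, 2.47 and 2.43 CPM, low in both groups and without overlap. The log2 fold change was 1.79 ± 0.22 (SE, adjusted p = 4.75e-04, edgeR quasi-likelihood), and it was between 1.62 and 1.88 with 1 library left out, with the call kept each time. Per kb, *COL17A1* and *ITGB4* had similar levels in siNT, with ratios of 0.992, 0.521 and 0.871. In siLTBP2 the ratios were 6.52, 5.96 and 7.28, a change of 3.10 on the log2 scale (exact permutation test, two-sided, p = 0.1, adjusted p = 0.1). The 2 membrane components of low level moved apart. That follows from the single genes, which lay apart in opposite directions, and the test of the ratio adds nothing to them.

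Partners included 3 proteases that can cut collagen XVII from the cell surface. *ADAM17* had a log2 fold change of 0.71 (edgeR quasi-likelihood, adjusted p = 3.4e-04) and *ADAM9* one of 0.47 (adjusted p = 0.0046), both higher in every siLTBP2 library. *ADAM10* did not pass (-0.27, adjusted p = 0.16). Of 2 proteases that process laminin-332, *MMP14* had a log2 fold change of 0.83 (adjusted p = 0.0032), from 427 ± 92.3 to 758 ± 45.6 CPM (SD, n = 3), and *BMP1* one of 0.16 (adjusted p = 0.36). *COL7A1*, which encodes the collagen of the anchoring fibrils beneath hemidesmosomes, was at 158 ± 9.18 CPM in siNT, against 151 ± 24.5 CPM after siLTBP2 (SD, n = 3), with an adjusted p of 0.73.

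The alpha3 and beta3 chains of laminin-332 moved in opposite directions. *LAMA3* (ENSG00000053747, chromosome 18, 23689453 to 23956222, plus strand, 75 exons), the alpha3 chain that the integrins bind, was at 20.9, 24.7 and 22.1 CPM in siNT and at 10.5, 12.01 and 11.8 CPM in siLTBP2. All siLTBP2 libraries were below all siNT libraries, near 50.7% of their level on the fitted scale. The log2 fold change was -0.98 ± 0.11 (SE, adjusted p = 2.5e-04, edgeR quasi-likelihood), so the gene passed the test but lay just inside the limit of 2-fold. It crossed that limit with total counts in place of TMM (-1.02) and without siNT replicate 1 (-1.04) or siLTBP2 replicate 2 (-1.02).

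*LAMB3* (ENSG00000196878, chromosome 1, 209614870 to 209652425, minus strand, 23 exons) encodes the beta3 chain. It was at 12.9, 7.84 and 15.9 CPM in siNT and at 21.8, 24.4 and 27.3 CPM in siLTBP2. The siNT libraries were spread over a 2-fold range, with replicate 2 lowest, and none reached the lowest siLTBP2 library. The log2 fold change was 1.00 ± 0.21 (SE, adjusted p = 0.0079, edgeR quasi-likelihood). Its call was lost without siNT replicate 1 (adjusted p = 0.023), siNT replicate 2 (log2 fold change 0.76), siLTBP2 replicate 2 (adjusted p = 0.028) or siLTBP2 replicate 3 (0.92).

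Per kb of exon, *LAMA3* was at 1.56 ± 0.134 and *LAMB3* at 2.63 ± 0.88 CPM per kb in siNT (SD, n = 3), with ranges that overlapped. In siLTBP2 they were at 0.789 ± 0.0547 and 5.28 ± 0.59. The *LAMA3*/*LAMB3* ratio per kb was 0.519, 1.01 and 0.445 in siNT and 0.155, 0.158 and 0.138 in siLTBP2, a change of -2.04 on the log2 scale (exact permutation test, two-sided, p = 0.1, adjusted p = 0.1). The alpha3 chain was lower relative to the beta3 chain in every siLTBP2 library than in any siNT library. That follows from the single genes, which lay apart in opposite directions, and the test of the ratio adds nothing to them.

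**Figure D3:**
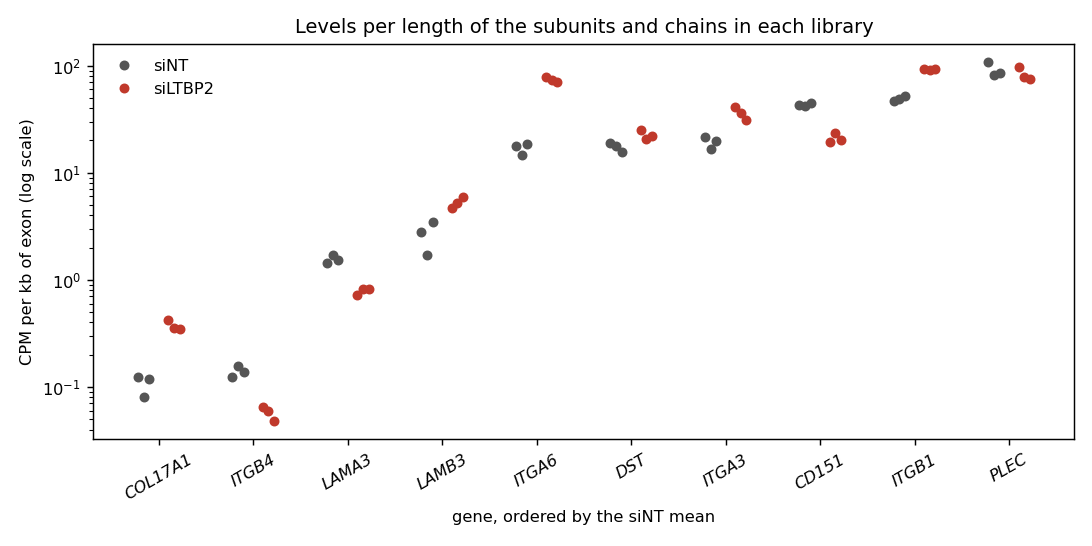
CPM per kb of exon (log scale) of the 8 members and of *ITGA3* and *ITGB1* in each siNT library (grey) and siLTBP2 library (red), ordered by the siNT mean. On this scale, which uses the exons of all isoforms together, *COL17A1* and *ITGB4* are lowest in siNT and *PLEC* is highest. *LAMA3* moves down where *LAMB3* moves up.

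The start regions of *LAMA3* and *LAMB3* are shown because their chains moved apart. RefSeq windows (GRCh38.p14) from 250 bases before to 50 bases after a start were used for 5 members (10 windows), which were *ITGA6*, *COL17A1*, *LAMA3*, *LAMB3* and *DST*. They were searched on both strands for TGANTCA, the word of the AP-1 factors, and for CATTCC, that of the TEAD factors. The AP-1 word was in 3 of the 10 windows, 1 each for *LAMA3*, *LAMB3* and *DST*, and in 7.71% of all 35116 windows of this length. The TEAD word was in a *DST* window and in 14.0% of all windows. The *LAMA3* window lies at chr18:23872770-23873069 on the plus strand, at an inner start of the gene, and holds the AP-1 word 125 and 69 bases before the start. The *LAMB3* window lies at chr1:209651325-209651624 on the minus strand and holds it 67 bases before the start, while the windows at 2 other *LAMB3* starts hold none. Both are written from 5′ to 3′ on the strand of the gene, with the word in capitals.

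LAMA3 window: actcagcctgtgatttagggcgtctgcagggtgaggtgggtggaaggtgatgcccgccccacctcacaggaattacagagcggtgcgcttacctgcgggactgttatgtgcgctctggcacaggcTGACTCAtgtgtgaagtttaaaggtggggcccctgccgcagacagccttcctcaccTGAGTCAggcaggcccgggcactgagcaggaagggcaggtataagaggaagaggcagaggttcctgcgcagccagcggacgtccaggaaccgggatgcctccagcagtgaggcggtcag

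LAMB3 window: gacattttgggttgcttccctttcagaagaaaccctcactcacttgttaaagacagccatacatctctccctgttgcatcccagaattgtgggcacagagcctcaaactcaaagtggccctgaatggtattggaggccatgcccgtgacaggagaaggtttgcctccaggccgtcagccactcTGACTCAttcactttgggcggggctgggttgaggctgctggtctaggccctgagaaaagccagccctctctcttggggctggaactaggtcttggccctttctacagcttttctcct

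Both windows carry the AP-1 word, and the windows of *ITGA6* and *COL17A1* carry neither word. No window was available for *ITGB4*, *CD151* or *PLEC*. The part of these words in the changes of the members was not tested. A match is not evidence that a factor was bound. Gene counts also do not say which start was used, for *LAMA3* as for *LAMB3*.

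The plakins, which link the membrane proteins to filaments, were by far the most abundant members in reads. *PLEC* (ENSG00000178209, chromosome 8, 143915153 to 143976734, minus strand, 32 exons) was at 1838, 1377 and 1442 CPM in siNT and at 1632, 1333 and 1279 CPM in siLTBP2. The groups overlapped, and the log2 fold change was -0.13 ± 0.14 (SE, adjusted p = 0.56, edgeR quasi-likelihood). With 1 library left out it ranged from -0.25 to 0.00. *DST* (ENSG00000151914, chromosome 6, 56457987 to 56954830, minus strand, 104 exons) was at 918, 861 and 753 CPM in siNT and at 1197, 1000 and 1060 CPM in siLTBP2, without overlap. Its log2 fold change was 0.36 ± 0.11 (SE, adjusted p = 0.045). The adjusted p of *DST* lay between 0.045 (without siNT replicate 1) and 0.17 (without siNT replicate 3) with a library left out and exceeded 0.05 in each other case, as it did with upper-quartile factors (0.057) and total counts (0.051). It was lower at about the same log2 fold change with the replicate block (4.3e-04), DESeq2 (0.0091) and edgeR's likelihood ratio test (0.015). *DST*/*PLEC* changed by 0.49 on the log2 scale, with groups that did not overlap (exact permutation test, two-sided, p = 0.1, adjusted p = 0.1). *DST* has epithelial, neuronal and muscle isoforms, of which the epithelial isoform belongs to hemidesmosomes, and counts per gene do not tell them apart. Per kb of the exons of all isoforms together, *PLEC* was highest among the members in siNT, at 91.3 ± 14.7, and *DST*, at 17.5 ± 1.74, overlapped with *ITGA6* (CPM per kb, SD, n = 3). This order depends on the length used. The exons of all isoforms held 3894 bases for *CD151*, 6679 for *ITGA6*, 16992 for *PLEC* and 48142 for *DST*. Their canonical transcripts hold 1545, 5816, 14804 and 24709 bases, so a ranking of these 4 genes by level per length is not drawn.

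The partner list held 24 genes, of which 20 were tested. Among them 1 was called higher (*KRT18*) and 0 lower (1.29% and 1.27% of all tested genes), and at an adjusted p below 0.05 there were 8 higher and 1 lower (9.76% and 9.51% of all tested genes), with 11 that did not pass. Their median log2 fold change was 0.31, against -0.01 over all tested genes. Of the cytoplasmic linkers, *ERBIN*, which binds the beta4 subunit, had a log2 fold change of 0.33 (edgeR quasi-likelihood, adjusted p = 0.031), and its adjusted p was between 0.048 and 0.099 with a library left out, below 0.05 only without siLTBP2 replicate 1. With all 6 libraries the adjusted p of *ERBIN* was 5.9e-04 with the replicate block, 0.011 with DESeq2 and 0.012 with edgeR's likelihood ratio test. *MACF1*, a plakin close to *DST* in structure, had one of 0.32 (adjusted p = 0.083). Desmoplakin (*DSP*) and envoplakin (*EVPL*) were almost absent, with at most 2 counts in any library. Among filament genes, *KRT18* rose from 36.4 ± 6.19 to 80.8 ± 7.66 CPM (SD, n = 3), a log2 fold change of 1.15 ± 0.13 (SE, adjusted p = 2.4e-04). Its usual partner *KRT8* had a log2 fold change of 0.32 (adjusted p = 0.085), and *VIM*, the vimentin gene and main filament gene of fibroblasts, one of 0.31 (adjusted p = 0.10).

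**Figure D4:**
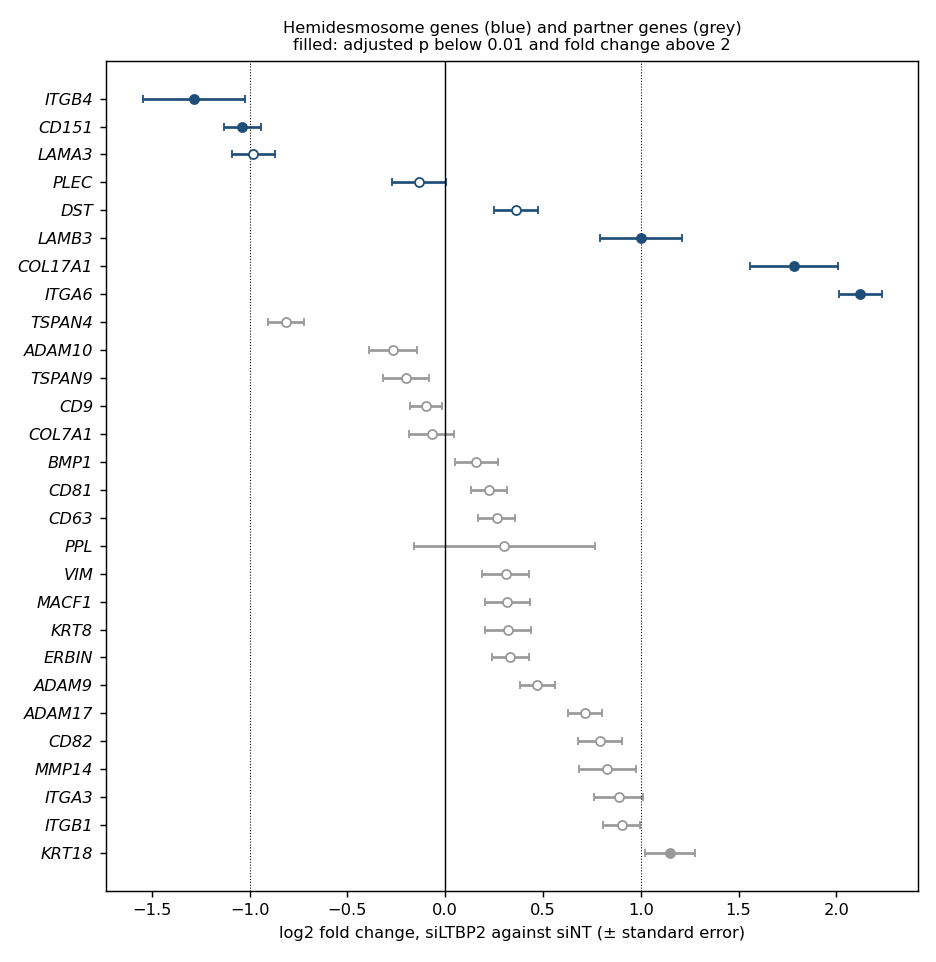
Log2 fold change of siLTBP2 against siNT with its standard error (horizontal axis) for the 8 hemidesmosome genes (blue) and the 20 tested partner genes (grey), each sorted by value, filled where called. Members reach from -1.29 (*ITGB4*) to 2.12 (*ITGA6*), and the partners from -0.81 (*TSPAN4*) to 1.15 (*KRT18*).

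The libraries of siNT also differed among themselves in the members. Replicate 2 was the siNT library with the lowest level of *ITGA6*, *COL17A1* and *LAMB3* and with the highest level of *ITGB4* and *LAMA3*, so for each of these genes it was the siNT library farthest from the siLTBP2 group. For *CD151* it was the lowest, with 165 CPM in 2 siNT libraries and 175 in the other, and it was lowest in *PLEC*. Leaving it out gave log2 fold changes of 2.03 for *ITGA6*, 1.62 for *COL17A1*, 0.76 for *LAMB3*, -1.20 for *ITGB4* and -0.91 for *LAMA3*, each closer to 0 than with all 6 libraries, and 2 genes were called higher and 1 lower.

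**Figure D5:**
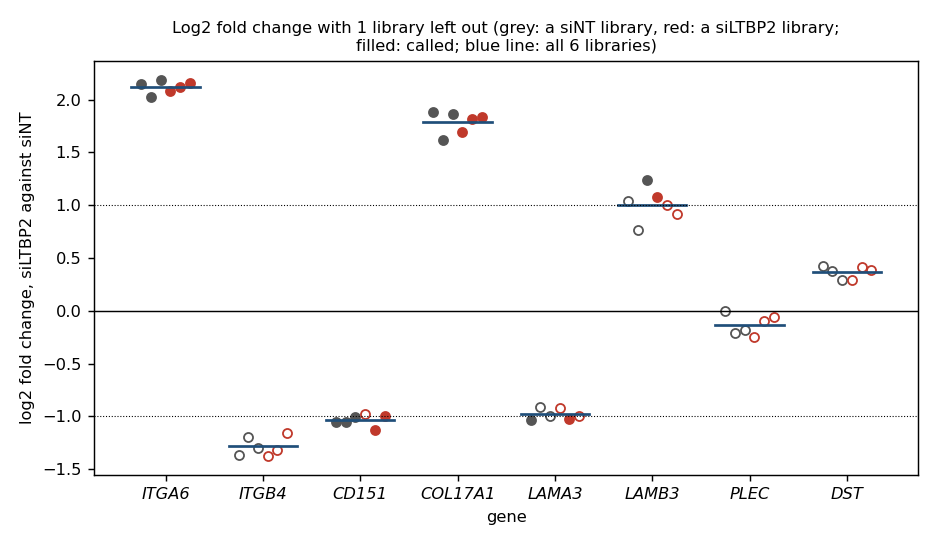
Log2 fold change of each member (vertical axis) when 1 library is left out, in the order siNT replicates 1 to 3 (grey) and siLTBP2 replicates 1 to 3 (red), filled where the gene was called, with the value from all 6 libraries as a blue line. *ITGA6* and *COL17A1* stay called in all 6 cases, *ITGB4* in none, and *CD151*, *LAMA3* and *LAMB3* lie around the dotted limits of a 2-fold change.

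Over the 6 libraries, the 3 protein-coding genes whose mean-centred log2 CPM lay nearest to *ITGA6* (Euclidean distance, among 11381 genes with a mean of at least 1 CPM) were *KRT15* (distance 0.23), *ANTXR2* (0.31) and *XIRP2* (0.41). *KRT15*, a keratin of basal epithelial cells, averaged 1.67 CPM in siNT, against 7.59 CPM in siLTBP2, a log2 fold change of 2.18 ± 0.17 (SE, adjusted p = 3.6e-05, edgeR quasi-likelihood). *ANTXR2*, a receptor for matrix proteins also known from anthrax toxin, averaged 119 and 448 CPM, and *XIRP2*, an actin-binding protein of muscle, 0.976 and 4.90 CPM. Those nearest to *CD151* were *NABP2* (distance 0.06), *HDAC5* (0.10) and *PGAP4* (0.13), with log2 fold changes of -1.05, -1.03 and -1.09. With 6 libraries in 2 groups, such a distance mainly reflects the size of the group difference.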

How the data were processed

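The data were RNA-seq libraries of CCD18Co fibroblasts, 3 siLTBP2 and 3 siNT. The authors aligned paired reads to GRCh38 with STAR (2.7.1a in the submitters' processing notes), counted them with HTSeq-count (HTSeq 0.11.2) and deposited these counts without normalization. For the Ensembl release and the strand setting, nothing was given in the sources used here. Reads in overlapping exons can be lost or assigned to the other gene, which bears on *CD151*. Of the 60663 genes, 27067 were at 0 throughout, and 16920 passed edgeR's filterByExpr. The depth of 44663424 to 53576899 counts limits genes of few counts, such as *ITGB4* and *COL17A1*.

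Counts were scaled by TMM and tested with edgeR 4.0.16 in R 4.3.3 (glmQLFit and glmQLFTest, two-sided, no block), with Benjamini-Hochberg adjustment over all tested genes. Alternatives were edgeR's likelihood ratio test (named in the study's methods), DESeq2 1.42.0, scaling by RLE factors, upper quartiles or total counts, other low-count filters, the replicate block and leaving out each library. Thresholds were an adjusted p of 0.01 and a fold change of 2, as in the study. The SE of a log2 fold change was obtained by dividing it by the root of its quasi-likelihood F. CPM per kb were CPM divided by the union of exon bases in GENCODE 44 (GRCh38). This union holds all isoforms and so lowers genes with many, such as *DST* and *CD151*, and comparisons of level between genes depend on it. Of the member and partner genes, 93.8% had the same start there as in the deposited table, including all 8 members.

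The members, the partner genes, the markers, the pairs of genes and the words were chosen with earlier results of these data known. Text names the 8 members, *LTBP2*, partner genes with an adjusted p below 0.05 or in a ratio, the genes nearest to *ITGA6* and *CD151* (log2 CPM with a prior count of 2), and overlapping genes. Some marker genes, and some partner genes that did not pass, were named to describe their lists, which were not named in full. Libraries of a group differed by more than sampling noise (chi-square per degree of freedom 24.6 to 48.1). Same-numbered libraries deviated together from their group means, with correlations of 0.53, 0.28 and 0.65 over 12982 genes of at least 1 CPM (0.30, 0.08 and 0.43 over all tested genes). Over all tested genes, siNT replicate 2 correlated at 0.08 with siLTBP2 replicate 2 and at 0.10 with siLTBP2 replicate 1. The numbers may thus pair the libraries, less clearly for replicate 2. The main test and the permutation test ignored such pairing, and the replicate block is given as an alternative. Results of some listed genes are not reported here. The steps were tested on simulated data.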

Additional observations from a re-analysis of the deposited data

How the results depend on the processing

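The direction of each of the 8 genes, of *LTBP2* and of the 8 ratios was the same under every alternative run. With the replicate block 3 genes were called higher and 2 lower, and no call of a member changed, with log2 fold changes such as -1.29 for *ITGB4*, 1.04 for *LAMB3* and -0.98 for *LAMA3*. With total counts *LAMA3* was called (-1.02) and *LAMB3* was not (0.97), and *LAMB3* was also lost with no low-count filter (0.99). It was lost as well when 1 CPM was required in 3 libraries, there through its adjusted p (0.0103, edgeR quasi-likelihood, log2 fold change 1.00). That filter removed *ITGB4*, leaving 1 gene called lower. Whether a gene near the limit of fold or of adjusted p was called therefore depended on small shifts. With 1 library left out, the log2 fold change ranged from 2.03 to 2.19 for *ITGA6*, from -1.38 to -1.16 for *ITGB4*, from 1.62 to 1.88 for *COL17A1*, from -1.04 to -0.91 for *LAMA3*, from 0.76 to 1.24 for *LAMB3*, from -1.13 to -0.98 for *CD151*, from 0.29 to 0.42 for *DST* and from -1.89 to -1.61 for *LTBP2*. Between 2 and 3 members were then called higher and between 0 (without siLTBP2 replicate 1) and 2 lower. Limits include the 2-fold threshold, the low counts of *ITGB4*, 3 libraries per group, and the use of 1 siRNA pool and 1 cell line. Over all tested genes, 434 were called, and 636 with the replicate block.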
